A study of Mus musculus with 13 samples.

Results

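A set of 10 genes of TREM2 and Fc receptor signalling through ITAMs was followed in sorted spinal cord glia of mice with and without Il33. They are Trem2, Fcgr1, Fcgr3, Fcgr4, Fcgr2b, Tyrobp, Fcer1g, Syk, Plcg2 and Inpp5d, and they were found by symbol in the deposited expression table, which lists 39171 genes. All 10 were found. The table holds 13 RNA sequencing libraries from C57BL/6 spinal cord in 4 groups. Il33 KO microglia (3 libraries) and WT littermate microglia (3 libraries) were sorted by the surface protein CD11b, all at postnatal day 12. Il33 KO astrocytes (4 libraries) and WT littermate astrocytes (3 libraries) were sorted by green fluorescent protein driven by the Aldh1l1 gene. All astrocytes were from day 12 except those of KO library 2 and WT library 3, which were from day 9. The KO line is that of Pichery and colleagues, a constitutive gene trap, so that no cell of these mice has intact Il33. CD11b is shared by microglia, border macrophages, monocytes and neutrophils, so the sort alone does not separate them. The series describes the libraries within a group as biological replicates, and no pooling of animals is stated in the labels.

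An ITAM is a short stretch of a receptor tail or adaptor with a pair of tyrosines. TREM2 senses lipids, lipoproteins and debris and has almost no tail of its own, so it signals through the adaptor DAP12, the product of Tyrobp. The activating receptors for the constant part of IgG, encoded by Fcgr1, Fcgr3 and Fcgr4, signal in the same way through the common gamma chain, the product of Fcer1g. Once Src family kinases have phosphorylated the ITAM tyrosines, the kinase SYK docks on them and starts phospholipase C gamma 2 and phosphoinositide 3-kinase signalling. The Fc receptor encoded by Fcgr2b instead carries an inhibitory motif (ITIM) that recruits the lipid phosphatase SHIP1, the product of Inpp5d. In microglia the pathway is known for its part in phagocytosis, survival and the response to lipid debris.

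The motifs that divide these genes into signalling and inhibitory members can be read in their coding sequence. The coding sequences below were taken from the reference transcripts of GENCODE on build GRCm38 and are written on the coding strand, with the codons of the tyrosines and of the leucines or isoleucine that frame the motif in capitals. The Tyrobp ITAM lies at chr7:30415670-30417382 on the plus strand and spans more than 1 exon, the Fcer1g ITAM at chr1:171229889-171230072 on the minus strand, likewise in more than 1 exon, and the Fcgr2b ITIM at chr1:170961071-170961088 on the minus strand.
Tyrobp ITAM: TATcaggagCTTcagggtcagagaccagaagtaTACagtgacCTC
Fcer1g ITAM: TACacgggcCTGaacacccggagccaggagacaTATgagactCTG
Fcgr2b ITIM: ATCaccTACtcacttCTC
Both ITAMs were 15 codons long, with 7 codons between the paired tyrosine stretches, while the ITIM was 6 codons long. Of the 10 coding sequences, the ITAM pattern was found only in the 2 adaptors. The receptors Trem2, Fcgr1, Fcgr3 and Fcgr4 held no match to it. The ITIM pattern is short and also matched at 1 to 3 places in Fcgr1, Fcgr4, Tyrobp, Fcer1g and Plcg2, so a match to it alone does not mark a working site.

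Levels are FPKM, fragments scaled to transcript length and library depth, which can be compared between genes. Differences are on the log2(FPKM + 1) scale, which understates the change of low genes. Read numbers are not known. The same gene held the largest share of summed FPKM in every library. That share was 28.5% to 32.5% in KO microglia, against 28.2%, 23.7% and 11.6% in WT libraries 1 to 3. It was 26.6% to 37.1% in KO and 28.9% to 38.9% in WT astrocytes. Microglia libraries of a group correlated at 0.848 to 0.889 in KO, against 0.76 to 0.806 in WT. The part of these differences in the levels below was not tested. Relative depth, read from the spacing of low values, was 73.0% to 100% of the deepest library in microglia and 33.7% to 63.1% in astrocytes, so low astrocyte values are the least precise. The targeted gene fitted its labels in the astrocytes, where Il33 stood at 2.28, 2.05, 0.424 and 0.733 FPKM in KO libraries, against 96.3, 113 and 108 FPKM in WT libraries (exact two-sided permutation p = 0.0286, the smallest that 4 against 3 libraries allow). In microglia Il33 was low in both genotypes and cannot check the labels. It stood there at 0.136, 0.00739 and 0 FPKM in KO, against 0.299, 0 and 1.26 FPKM in WT libraries. The microglia libraries carried their label's markers, since 14 microglia markers summed to 12697 to 13061 FPKM in KO and 11824 to 13333 FPKM in WT microglia, while 10 astrocyte markers summed to 65.0 to 105 and 66.9 to 95.1 FPKM there. In astrocytes the 10 astrocyte markers summed to 6242 to 9429 FPKM in KO and 6288 to 10868 FPKM in WT libraries, and 9 oligodendrocyte markers to 5368 to 7857 and 4290 to 5998 FPKM. In WT astrocyte library 2 these sums were 10868 and 5107 FPKM, and in each of the 7 libraries the oligodendrocyte sum was below the astrocyte sum. The libraries differed in Xist, the transcript of the inactive X chromosome, with 0.376, 0.366 and 0.145 FPKM in KO microglia, against 268, 283 and 0.713 FPKM in WT microglia. In astrocytes Xist stood at 0.133, 0.307, 10.1 and 32.4 FPKM in KO, against 0.370, 32.9 and 4.10 FPKM in WT libraries. Its part in the astrocyte differences was not tested. The 10 genes were compared 5 ways, by genotype in each cell type, by the difference between those comparisons, and by cell type in each genotype.

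All 10 genes were far higher in microglia than in astrocytes in both genotypes, and their order of abundance in microglia was the same in both. The adaptor Tyrobp was highest, at 1722 ± 51.3 FPKM in KO and 1725 ± 297 FPKM in WT microglia (SD, n = 3 each), followed by the adaptor Fcer1g at 1270.4 ± 146 and 1457 ± 69.1 FPKM. Among the genes with a symbol, Tyrobp ranked 24 in KO and 29 in WT microglia and Fcer1g ranked 32 in both. Next was the receptor Trem2 at 329 ± 28.6 FPKM in KO and 287 ± 64.5 FPKM in WT microglia, so each adaptor stood above every receptor that uses it. Fcgr3, Inpp5d, Fcgr1, Fcgr2b, Syk and Plcg2 followed, and Fcgr4 was last at 2.99 ± 0.404 and 4.01 ± 1.17 FPKM. Neighbours in this order had overlapping ranges for Fcgr3 and Inpp5d in KO microglia, for Tyrobp and Fcer1g in WT microglia, and for Syk and Plcg2 in both.

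In limma's fit of all 13 libraries, 31.9% of 16258 genes were called higher in KO microglia than in KO astrocytes at an adjusted p under 0.05, and 29.1% higher in WT microglia than in WT astrocytes. All 10 genes were called higher in both comparisons. In all 10, no microglia library overlapped an astrocyte library of the same genotype. That held for 34.2% of genes in KO and 30.1% in WT. Only 3 of the 10 reached a mean of 1 FPKM over the astrocyte libraries. The others reach that mean over 13 libraries through microglia alone, so a higher call was largely built in for them. These counts describe where the genes were read and are no test of the set. The median log2 difference of the 10 genes was 6.03 in KO and 5.81 in WT, against 0.24 and 0.21 over all genes tested. The smallest difference was that of Fcgr4, at 1.99 in KO (SE 0.27, limma adjusted p = 9.89e-05) and 2.30 in WT (SE 0.29, limma adjusted p = 7.12e-05), and Fcgr4 was listed at 0 in all 7 astrocyte libraries. The largest was that of Tyrobp, at 7.29 in KO (SE 0.49, limma adjusted p = 4.93e-07) and 8.88 in WT (SE 0.53, limma adjusted p = 2.66e-07). In whole sorted populations, fewer cells of a type and less RNA per cell cannot be told apart.

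**Figure D1:**
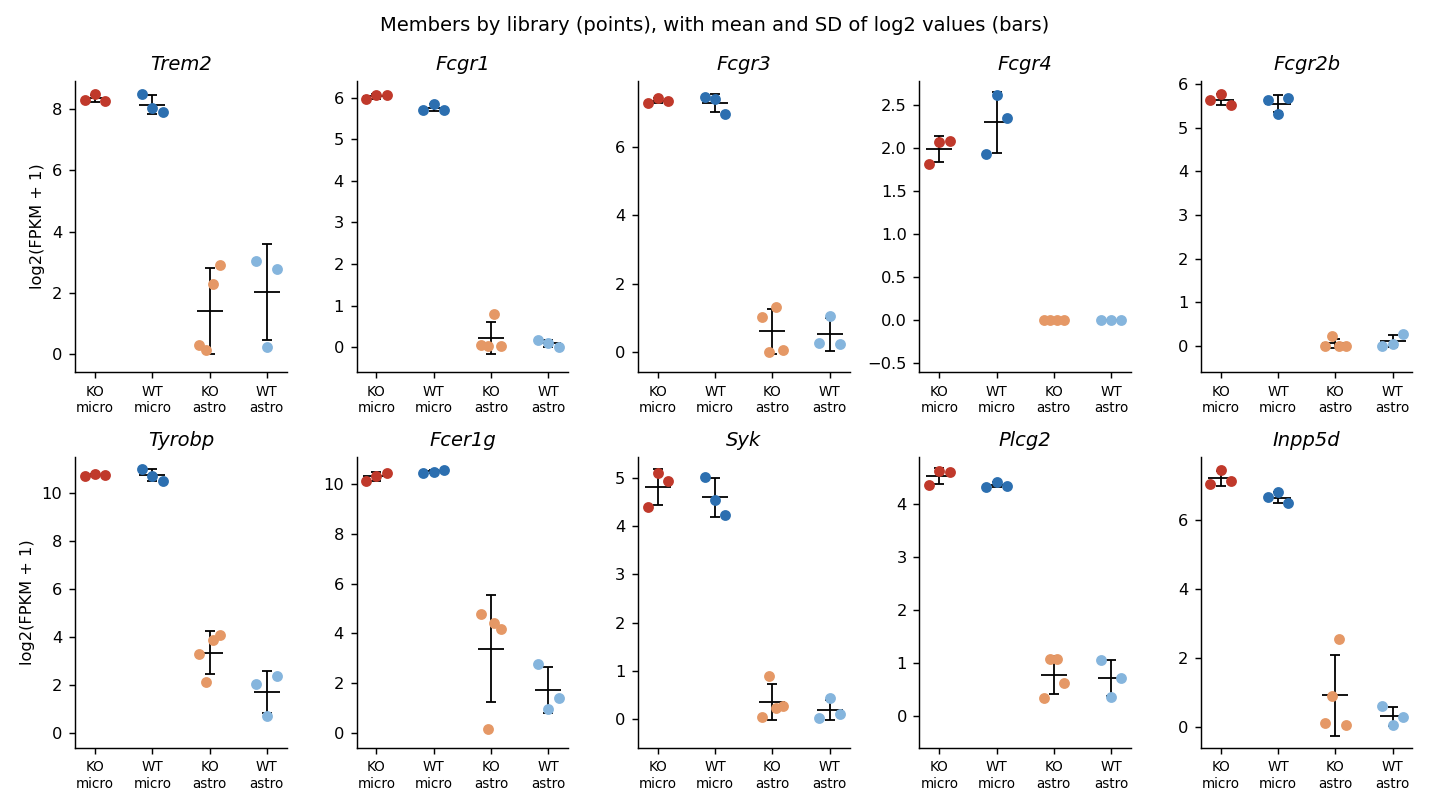
Level of the 10 genes as log2(FPKM + 1) in each library, one panel per gene, with points for libraries and bars for the mean and SD of KO microglia, WT microglia, KO astrocytes and WT astrocytes; the vertical scale differs between panels. All microglia libraries stand above all astrocyte libraries for every gene, and the KO and WT microglia points overlap except for Fcgr1 and Inpp5d.

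Inpp5d and Fcgr1 stood higher in every KO than in every WT microglia library, at 1.48 and 1.21 times the WT mean, while the KO and WT libraries overlapped for the other 8 genes, and none of the 10 passed the test over all genes. Between KO and WT microglia, limma called 13 of 15890 genes (0.0818%) at an adjusted p under 0.05, and none of the 10 genes was among them (lowest adjusted p = 0.553, for Inpp5d). One of the 10, Inpp5d, had an unadjusted p under 0.05, as did 1264 of all genes (7.95%). In 2 of the 10, Fcgr1 and Inpp5d, the KO and WT libraries did not overlap, which held for 15.9% of all genes in either direction and 8.41% with KO above WT. Of the 10, 8 differences were above 0 and 2 below, with a median of 0.13, against a median of 0.02 over all genes and quartiles of −0.28 and 0.32.

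Trem2 (ENSMUSG00000023992; chromosome 17, 48346401 to 48354147, plus strand, GRCm38) stood at 315, 362 and 310 FPKM in KO microglia, against 360, 262 and 238 FPKM in WT microglia. The groups overlapped, and the highest WT library was nearly as high as the highest KO library. The log2 difference was 0.22 (SE 0.20, 95% interval −0.27 to 0.71, limma adjusted p = 0.745), an interval that spans 0. It was 0.39 without WT library 1, 0.09 without WT library 3 and 0.37 after quantile normalisation, and was not called in any of these fits.

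The differences of the 3 activating Fc receptor genes had both signs, and none passed the test. Fcgr1 (ENSMUSG00000015947; chromosome 3, 96282909 to 96293969, minus strand), the high-affinity receptor for IgG, stood at 61.5, 66.2 and 65.8 FPKM in KO microglia, against 51.5, 57.1 and 51.3 FPKM in WT microglia. Every KO library was above every WT library, although the exact two-sided permutation test could reach no less than the p = 0.1 that it gave, with 3 libraries a group. In limma the log2 difference was 0.27 (SE 0.13, 95% interval −0.06 to 0.60, adjusted p = 0.630). Fcgr3 (ENSMUSG00000059498; chromosome 1, 171051174 to 171064935, minus strand), a low-affinity receptor, stood at 157, 173 and 165 FPKM in KO microglia, against 177, 172 and 126 FPKM in WT microglia. The groups overlapped and the lowest library was a WT one (log2 difference 0.07, SE 0.18, limma adjusted p = 0.914). Fcgr4 (ENSMUSG00000059089; chromosome 1, 171018920 to 171029761, plus strand), a receptor for IgG2 subclasses, stood at 2.53, 3.20 and 3.25 FPKM in KO microglia, against 2.80, 5.15 and 4.09 FPKM in WT microglia. Its highest values were in 2 WT libraries and its lowest in a KO library (log2 difference −0.31, SE 0.26, limma adjusted p = 0.739).

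Fcgr2b (ENSMUSG00000026656; chromosome 1, 170958617 to 170976547, minus strand), the inhibitory receptor, stood at 49.0, 53.8 and 44.5 FPKM in KO microglia, against 48.9, 39.0 and 49.9 FPKM in WT microglia. The groups overlapped (log2 difference 0.10, SE 0.17, limma adjusted p = 0.868), and the ratio of Fcgr2b to the summed activating receptors was 0.222, 0.222 and 0.190 in KO microglia, against 0.212, 0.167 and 0.274 in WT microglia. Fcgr2b and Fcgr3 share 166 stretches of 50 bases, 4.48% of those in Fcgr2b and 10.2% of those in Fcgr3, so the split of reads between them depends on how they were assigned and their levels are uncertain. Fcgr2b also overlaps an antisense gene, and whether strand was kept is not stated.

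Neither adaptor passed the test. Tyrobp (ENSMUSG00000030579; chromosome 7, 30413760 to 30417585, plus strand) stood at 1675, 1776 and 1714 FPKM in KO microglia, against 2039, 1687 and 1449 FPKM in WT microglia. The WT libraries spread on both sides of the KO libraries, and the log2 difference was 0.01 (SE 0.18, 95% interval −0.42 to 0.45, limma adjusted p = 0.990). After quantile normalisation it was 0.37 (limma adjusted p = 0.651). Fcer1g (ENSMUSG00000058715; chromosome 1, 171229572 to 171234365, minus strand) stood at 1116, 1289 and 1406 FPKM in KO microglia, against 1391, 1451 and 1528 FPKM in WT microglia. The highest KO library lay just above the lowest WT library, so the groups overlapped (log2 difference −0.20, SE 0.16, 95% interval −0.58 to 0.18, limma adjusted p = 0.739), and after quantile normalisation the difference was 0.05.

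Downstream, Syk (ENSMUSG00000021457; chromosome 13, 52583173 to 52648792, plus strand), the kinase that reads the ITAM, stood at 19.99, 33.4 and 29.6 FPKM in KO microglia, against 31.7, 22.3 and 17.7 FPKM in WT microglia. The libraries of both groups spanned almost the same range (log2 difference 0.21, SE 0.29, limma adjusted p = 0.834). Plcg2 (ENSMUSG00000034330; chromosome 8, 117498291 to 117635142, plus strand), the lipase that SYK activates, stood at 19.5, 23.5 and 23.5 FPKM in KO microglia, against 19.1, 20.4 and 19.4 FPKM in WT microglia. Of the KO libraries, 2 were above every WT library and 1 lay among them (log2 difference 0.16, SE 0.15, limma adjusted p = 0.750).

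Inpp5d (ENSMUSG00000026288; chromosome 1, 87620312 to 87720507, plus strand), the phosphatase that removes a product of phosphoinositide 3-kinase, stood at 131, 174 and 138 FPKM in KO microglia, against 99.8, 110.4 and 89.1 FPKM in WT microglia. All 3 KO libraries were above all 3 WT libraries, and the means were 148 ± 23.0 and 99.8 ± 10.6 FPKM, a ratio of 1.48 (exact permutation p = 0.1, the smallest possible). The log2 difference was 0.56 (SE 0.17, 95% interval 0.13 to 0.98), with an unadjusted limma p of 0.0190 and an adjusted p of 0.553, so the difference did not pass the test over all genes.

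**Figure D2:**
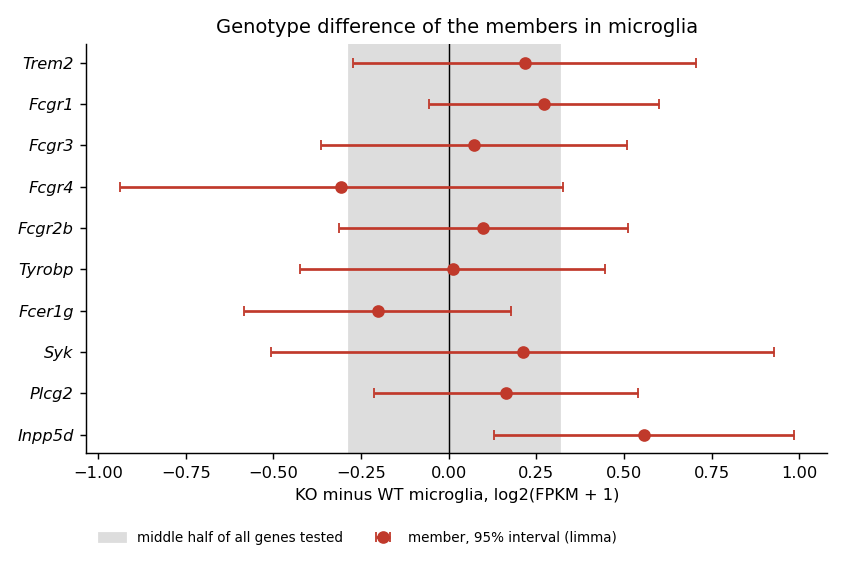
Difference of KO minus WT microglia in mean log2(FPKM + 1) for each of the 10 genes, ordered by role, with points for the estimate and bars for its 95% interval from limma; the grey band runs from the lower to the upper quartile of all genes tested (−0.28 to 0.32). The interval lies wholly above 0 for Inpp5d (0.13 to 0.98) and spans 0 for the other 9 genes.

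Markers of other cells also differed between these libraries. Oligodendrocyte markers summed to 1538 to 2534 FPKM in KO and 1033 to 1762 FPKM in WT microglia, 9 of 9 being above 0 in their differences and 5 with an unadjusted limma p under 0.05. Neutrophil markers summed to 57.2 to 122 FPKM in KO and 135 to 271 FPKM in WT microglia, where 1 of 8 differences was above 0, and 2 of 11 markers in KO and 1 in WT were below 1 FPKM. Border macrophage markers summed to 780 to 883 FPKM in KO and 853 to 1760 FPKM in WT microglia, and 1 of 10 was above 0. Monocyte markers summed to 32.9 to 44.8 FPKM in KO and 36.1 to 90.5 FPKM in WT microglia, where 1 of 8 was above 0. Neuron markers summed to 4.27 to 5.57 FPKM in KO and 8.19 to 46.9 FPKM in WT microglia. None of these markers was called. Fc receptors and Tyrobp are also expressed by macrophages, monocytes and neutrophils, and the part of these cells in the values above was not tested. Natural killer, lymphoid and mast cell markers summed to at most 2.08 FPKM in any microglia library. WT library 3, the WT microglia library with Xist as low as 0.713 FPKM, had the lowest Inpp5d of all 6, at 89.1 FPKM. Xist was low in all 3 KO libraries, so only WT library 3 separates it from genotype. That library also had the lowest relative depth of the 6, at 73.0%, and 1 library cannot settle which applies.

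Ratios of members within a library do not change with a single scaling factor per library, but they can change under quantile normalisation. After it, the log2 differences of Trem2 and Tyrobp given above were alike, unlike those without it. Trem2 stood at 0.188, 0.204 and 0.181 of Tyrobp in KO microglia, against 0.177, 0.155 and 0.165 in WT microglia, a ratio 1.15 times as high without overlap between the groups (exact two-sided permutation p = 0.1, the smallest possible; Benjamini-Hochberg adjusted over 5 ratios, 0.5). The phosphatase to kinase ratio, Inpp5d over Syk, was 6.56, 5.21 and 4.68 in KO microglia, against 3.15, 4.95 and 5.04 in WT microglia, and the groups overlapped (exact permutation p = 0.4). Fcer1g over Tyrobp, which compares the 2 adaptors, was 0.666, 0.726 and 0.820 in KO microglia, against 0.682, 0.861 and 1.06 in WT microglia, again with overlap (exact permutation p = 0.4). Plcg2 over Syk and Fcgr2b over the activating receptors gave exact permutation p = 1.

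**Figure D3:**
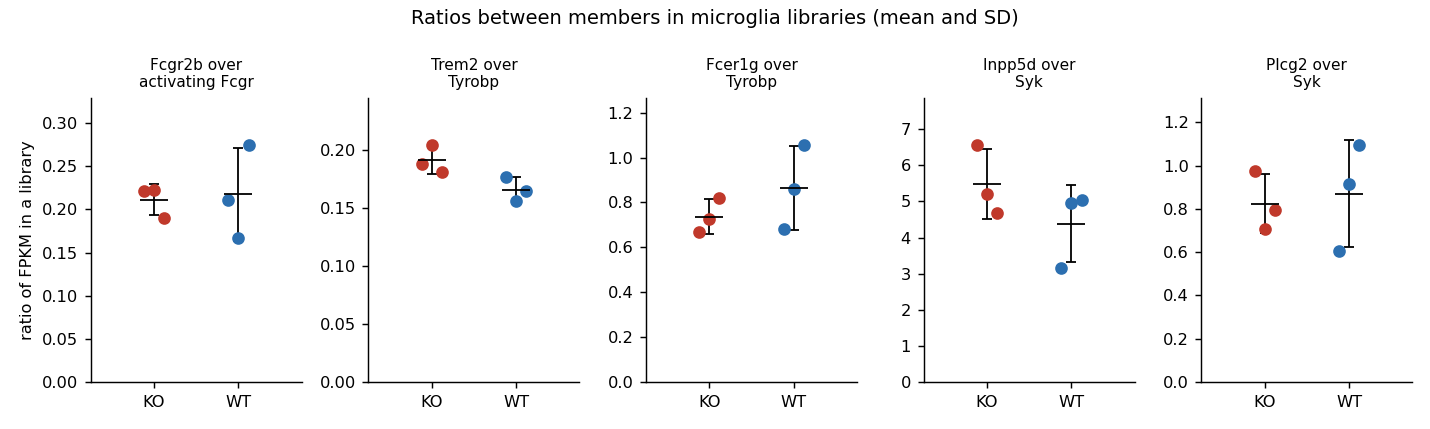
Ratios of FPKM within each microglia library for 5 pairs of members, KO left and WT right, with points for libraries and lines for the mean and SD. Only Trem2 over Tyrobp has all 3 KO libraries (0.181 to 0.204) above all 3 WT libraries (0.155 to 0.177).

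In astrocytes only 3 members, Trem2, Tyrobp and Fcer1g, had a mean of at least 1 FPKM over the 7 libraries, and the other 7 stayed at or below 4.90 FPKM in every library. Tyrobp stood at 8.98, 3.33, 13.8 and 16.2 FPKM in KO astrocytes, against 3.17, 0.658 and 4.17 FPKM in WT astrocytes. The KO library of day 9 fell within the WT range and the other 3 KO libraries were above it. The log2 difference was 1.60 (SE 0.61, 95% interval 0.15 to 3.05, unadjusted limma p = 0.0346, adjusted p = 0.920), and the exact permutation test gave p = 0.0857. Fcer1g stood at 26.5, 0.127, 20.2 and 17.0 FPKM in KO astrocytes, against 5.78, 0.968 and 1.66 FPKM in WT astrocytes. The day 9 KO library was the lowest of all and the other 3 KO libraries were above every WT library (log2 difference 1.46, SE 0.81, limma adjusted p = 0.920; exact permutation p = 0.143). Trem2 stood at 0.212, 0.0798, 3.89 and 6.47 FPKM in KO astrocytes, against 7.22, 0.152 and 5.90 FPKM in WT astrocytes, with high and low libraries in both groups (log2 difference −0.64, SE 1.01, limma adjusted p = 0.942; exact permutation p = 0.543).

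Of 13404 genes limma called 3 between KO and WT astrocytes (0.0224%), and none of the 10 genes was among them. Tyrobp alone had an unadjusted p under 0.05, against 4.2% of all genes, and none of the 10 was without overlap, against 4.68% of all genes. At day 12 alone, Tyrobp ranged over 8.98 to 16.2 FPKM in KO astrocytes, against 0.658 and 3.17 FPKM in WT astrocytes (log2 difference 2.38, limma adjusted p = 0.807), and Fcer1g over 17.0 to 26.5, against 0.968 and 5.78 FPKM (2.58, adjusted p = 0.807). Trem2 at day 12 turned to 0.20 (limma adjusted p = 0.967). Without WT library 2 the differences of both days were 0.92 for Tyrobp, 0.52 for Fcer1g and −1.80 for Trem2, and none was called. Microglia markers were also present in the astrocyte libraries, with 14 markers summing to 82.3, 9.29, 77.0 and 68.8 FPKM in KO astrocytes, against 57.2, 68.5 and 21.8 FPKM in WT astrocytes. The KO library of day 9, the lowest KO library for Tyrobp and the lowest of all 7 for Fcer1g, was also the lowest for these markers. WT library 2 was the highest of the WT libraries for the markers and the lowest for Tyrobp. The median microglia marker in KO astrocytes was at 0.391% of its level in KO microglia, against 0.289% in WT, while Tyrobp was at 0.614% in KO and 0.154% in WT and Fcer1g at 1.26% and 0.192%. Trem2 ran the other way, at 0.810% in KO and 1.54% in WT. The part of microglial RNA in these values was not tested.

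**Figure D4:**
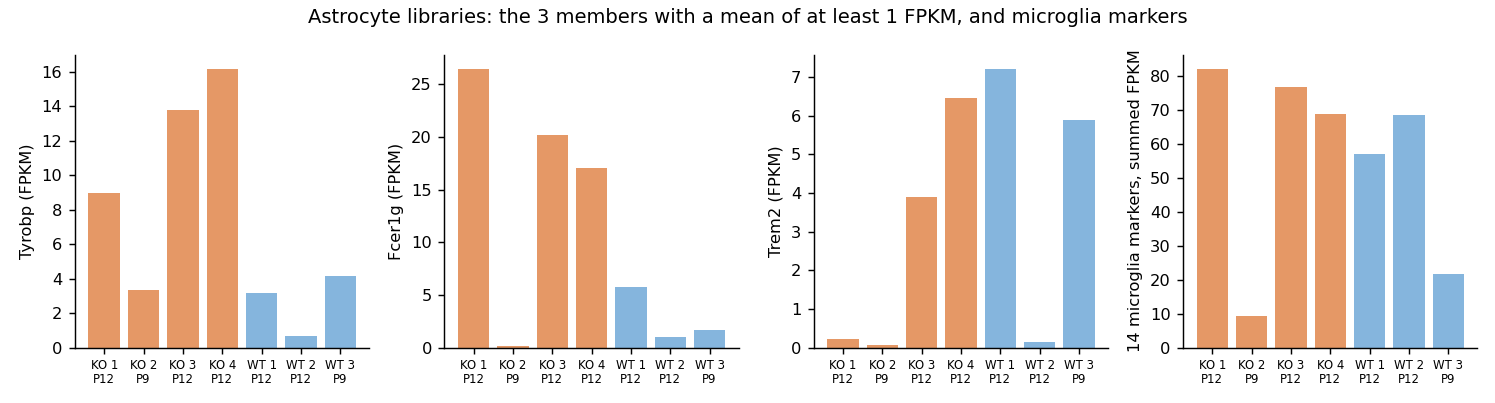
FPKM of Tyrobp, Fcer1g and Trem2 and the summed FPKM of 14 microglia markers in each astrocyte library, KO libraries left and WT libraries right, with the postnatal day under each. The day 9 KO library is the lowest KO library in all 4 panels, although its Tyrobp lies within the range of the WT libraries. WT library 2 has 68.5 FPKM of markers and 0.658 FPKM of Tyrobp.

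The genotype differences in microglia and astrocytes were then compared directly. Of 16258 genes, limma called 23 for this interaction (0.141%), and none of the 10 genes was called (lowest adjusted p = 0.751). Tyrobp differed by −1.59 between the microglial and the astrocyte difference (SE 0.69, unadjusted p = 0.0438, adjusted p = 0.751), being the one gene of the 10 with an unadjusted p under 0.05, against 6.62% of all genes. For Fcer1g it was −1.66 (SE 0.93, limma adjusted p = 0.795).

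Of 117 further genes of the pathway, listed by role, 115 were in the table and 95 were tested in microglia. None was called in KO against WT microglia by limma (lowest adjusted p = 0.553), and 8 of the 95 had an unadjusted p under 0.05, against 7.95% of all genes. Differences were above 0 for 57 and below 0 for 38, with a median of 0.05, near the 0.02 of all genes. Among them Dapp1, an adaptor of B cell and phosphoinositide signalling, stood at 50.8, 60.5 and 57.2 FPKM in KO microglia, against 43.0, 35.2 and 38.1 FPKM in WT microglia (log2 difference 0.53, SE 0.15, limma adjusted p = 0.553). Inppl1, which encodes SHIP2, a relative of Inpp5d, stood at 4.42, 5.83 and 5.23 FPKM in KO, against 3.08, 2.85 and 3.14 FPKM in WT microglia (0.61, adjusted p = 0.557). It overlaps Phox2a on the other strand and is uncertain. Src stood at 5.01, 4.08 and 3.39 FPKM in KO, against 3.35, 1.56 and 1.34 FPKM in WT microglia (0.79, adjusted p = 0.595). Bcl10, a scaffold of NF-kB signalling, stood at 9.29, 15.5 and 16.5 FPKM in KO, against 24.2, 29.0 and 19.6 FPKM in WT microglia (−0.79, adjusted p = 0.581). Each of these 4 was without overlap between the groups. They were named for the smallest p in their roles, which favours such genes, so this is no result about the pathway. Without any such choice, 15.9% of all genes had no overlap, in either direction. Hcst, which encodes the related adaptor DAP10, stood at 27.7, 18.7 and 19.3 FPKM in KO, against 7.54, 20.01 and 3.63 FPKM in WT microglia, and the groups overlapped (1.26, adjusted p = 0.601). They also overlapped for Fcrl1, an Fc receptor-like gene (7.77 FPKM in KO and 4.85 FPKM in WT microglia on average; 0.60, limma adjusted p = 0.612), and for Adam17, a protease that sheds TREM2 (50.1 and 56.9 FPKM; −0.16, adjusted p = 0.799; it overlaps Iah1 on the other strand and is uncertain).

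In astrocytes 55 of the pathway genes were tested, and limma called none (lowest adjusted p = 0.920), with 2 of the 55 at an unadjusted p under 0.05, against 4.2% of all genes. Differences were above 0 for 21 and below 0 for 34, with a median of −0.08, against 0.00134 over all genes. The 2 were Adam17, at 12.6 ± 1.22 FPKM in KO (SD, n = 4) and 22.7 ± 7.58 FPKM in WT astrocytes (SD, n = 3), and Plcg1, the phospholipase C of most other tissues, at 10.4 ± 2.74 and 24.4 ± 13.2 FPKM. Their KO libraries all lay below their WT libraries, with log2 differences of −0.72 and −1.10. Both were named for a small p, which favours such genes, so this is no result about the pathway. Without any such choice, 4.68% of all genes had no overlap, in either direction. Plcg1 overlaps Zhx3 on the other strand and is uncertain. Siglech, Trim21, Lyn, Dapp1 and Ptpn11 had the smallest p of the other roles, and in each the groups overlapped (limma adjusted p from 0.920 to 0.924).

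**Figure D5:**
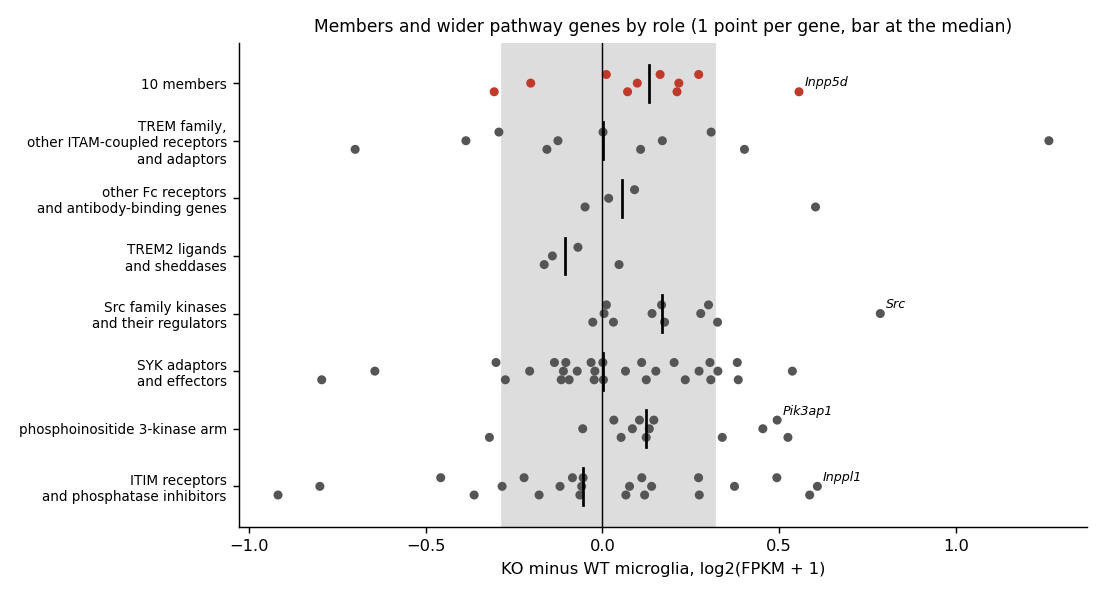
Difference of KO minus WT microglia in mean log2(FPKM + 1) for the 10 members (red) and the 95 tested pathway genes (grey) by role, with 1 point per gene, a bar at each role's median and a grey band between the quartiles of all genes tested. Points lie on both sides of 0 in every role, and none was called; Inpp5d and the 3 genes in the authors' deposited table, Src, Pik3ap1 and Inppl1, are named.

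The authors' deposited tables of genes past their own threshold list 483 genes for microglia and 10 for astrocytes, and hold none of the 10 genes in either. Of the 483, the authors' deposited table has 206 higher in KO and 277 higher in WT. It holds 3 of the 115 pathway genes, and these 3 are higher in KO, while none is in the table for astrocytes. The 483 come from an expression table of 39171 genes, of which 15890 were tested in microglia here. A count as small as 3 is therefore not read as a result about the pathway. Src has mean normalised counts of 477 in KO and 181 in WT in the authors' deposited table (adjusted p = 0.000209), Inppl1 has 820 and 420 (adjusted p = 0.00334) and Pik3ap1, an adaptor that brings phosphoinositide 3-kinase to receptors, has 3049 and 2039 (adjusted p = 0.0340). In the FPKM, Pik3ap1 stood at 26.6, 34.1 and 31.1 in KO microglia, against 23.1, 21.4 and 19.7 in WT microglia, and limma gave a log2 difference of 0.49 (SE 0.16, adjusted p = 0.576).

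Across the cell types, 74 of the 95 tested pathway genes were called higher in KO microglia than in KO astrocytes and 13 lower. In WT, 70 were called higher and 12 lower. Of all genes, 31.9% were called higher and 25.1% lower in KO, and 29.1% and 24.5% in WT. The filter took the mean over all 13 libraries, so a gene low in astrocytes could enter through microglia alone. Within astrocytes only 55 pathway genes were tested. These counts describe where the genes were read and are no test of the pathway. Csf1r, the receptor of microglial survival factors, stood at 1270.3 FPKM in KO microglia and 4.37 FPKM in KO astrocytes, and Lyn, a Src kinase that phosphorylates ITAMs, at 149 and 1.65 FPKM. Lcp2, the adaptor SLP-76, stood at 159.8 and 0.896 FPKM. Ptpn6, the phosphatase SHP1 that ITIMs recruit, stood at 516 and 0.959 FPKM. All 4 were also called higher in WT microglia, and each overlaps a gene on the other strand. The integrin gene Itgam encodes the sorted protein CD11b. It stood at 554 FPKM in KO microglia and 2.68 FPKM in KO astrocytes, and at 618 and 4.31 FPKM in WT. It overlaps Gm49368 on the same strand and is uncertain. The receptor-like gene Fcrls stood at 516 and 1.70 FPKM in KO, and at 487 and 2.38 FPKM in WT. Among inhibitory receptors, Sirpa, which reads the signal CD47, stood at 906 FPKM in KO microglia and 84.5 FPKM in KO astrocytes, and at 661 and 85.9 FPKM in WT. Ptprc, the phosphatase CD45 that primes Src kinases, stood at 102 and 0.108 FPKM in KO, and at 101 and 0.0497 FPKM in WT. It overlaps A130071D04Rik on the same strand. Pik3cg and Pik3r5, a catalytic and a regulatory subunit of phosphoinositide 3-kinase gamma, stood at 49.0 and 49.5 FPKM in KO microglia and under 1 FPKM on average in KO astrocytes. The protease gene Adam10 and the IgG transporter gene Fcgrt were higher by smaller log2 differences, 2.34 and 1.32 in KO and 2.53 and 1.13 in WT. Fcgrt overlaps an antisense gene, and it lost its call in WT without WT astrocyte library 2 (limma adjusted p = 0.0516). Rac1, a GTPase of phagocytosis, was lower, at 341 FPKM in KO microglia and 613 FPKM in KO astrocytes (log2 difference −0.84, limma adjusted p = 0.000187). The other way, the TREM2 ligand Apoe stood at 1129 FPKM in KO microglia and 8161 FPKM in KO astrocytes (log2 difference −2.87, SE 0.24, limma adjusted p = 2.38e-06) and at 1137 and 8485 FPKM in WT (−2.99, adjusted p = 3.98e-06).

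By the mean absolute difference of their deviations over the 6 microglia libraries, the genes most like Trem2 among 5372 were Tiprl (0.042), Ifngr2 (0.0473) and March6 (0.0518), and those most like Tyrobp were Ftl1 (0.0122), Dennd1c (0.0336) and B230219D22Rik (0.0347). Ftl1, the ferritin light chain, stood at 738, 804 and 774 FPKM in KO and 912, 749 and 644 FPKM in WT microglia. It was picked for following Tyrobp over these same libraries, so the likeness is no test of shared regulation.

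The promoters of Inpp5d and Fcgr1, the members without overlap between KO and WT microglia, and of Trem2 are shown to place a motif that PU.1, the ETS factor of myeloid cells, can bind. They are the 250 bases before the start, from RefSeq's table on GRCm38.p6, on each gene's own strand, with GAGGAA or its reverse complement in capitals. Inpp5d is chr1:87620062-87620311 on the plus strand, Fcgr1 is chr3:96293970-96294219 on the minus strand and Trem2 is chr17:48346151-48346400 on the plus strand.
Inpp5d promoter: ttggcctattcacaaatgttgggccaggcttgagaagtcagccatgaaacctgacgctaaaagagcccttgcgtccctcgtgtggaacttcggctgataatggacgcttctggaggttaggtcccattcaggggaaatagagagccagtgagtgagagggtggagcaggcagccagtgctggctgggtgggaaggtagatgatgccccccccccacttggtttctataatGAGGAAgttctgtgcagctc
Fcgr1 promoter: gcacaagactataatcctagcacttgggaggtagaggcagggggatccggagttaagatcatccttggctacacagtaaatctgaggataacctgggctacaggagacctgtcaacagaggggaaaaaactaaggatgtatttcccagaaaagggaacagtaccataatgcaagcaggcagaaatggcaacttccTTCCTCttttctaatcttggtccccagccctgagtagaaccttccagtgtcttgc
Trem2 promoter: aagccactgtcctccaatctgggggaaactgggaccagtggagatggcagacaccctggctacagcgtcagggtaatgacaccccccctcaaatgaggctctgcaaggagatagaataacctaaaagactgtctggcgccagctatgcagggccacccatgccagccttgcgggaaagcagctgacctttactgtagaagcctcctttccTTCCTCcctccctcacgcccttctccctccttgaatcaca
RefSeq entries were found for 9 of the 10 genes, Tyrobp having none in the table. In windows of 250 bases before to 50 after the start, GAGGAA was found on either strand in 6 of 9 members and in 31.3% of the 27025 genes with a promoter. The longer GAGGAAGT, which contains it, was in 2 of 9 members, Inpp5d and Fcgr4, and in 3.69% of all genes. A match is a run of letters and does not show binding.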

How the data were processed

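Per the labels' protocols, the RNA was isolated by TRIZOL, DNase and column steps, and NuGEN RNA-Seq V2 was used for cDNA and libraries. Per the submitters' processing notes, TopHat2 2.0.11, Bowtie2 2.2.3, HTSeq 0.6.1p1, Cufflinks, Cuffnorm and DESeq2 were used with build GRCm38. The authors deposited FPKM for 39171 genes, scaled between libraries by a method not given in the sources used here. For each cell type, per the file headers, a second table gives the authors'  mean normalised counts of each genotype (a signal), log2 fold changes of WT over KO, their standard errors and test statistics (scores), p-values and adjusted p-values. Those tables list only genes past an adjusted p of 0.05.

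FPKM are not counts, so limma 3.58.1 in R 4.3.3 was run on log2(FPKM + 1), with a trend, two-sided, for genes with a mean of at least 1 FPKM over the fitted libraries. The 10 members and Il33 were kept in any case. Microglia were fitted alone, astrocytes with age, and the rest in 1 fit of 13 libraries with age. A gene was called at an adjusted p (Benjamini-Hochberg, over all genes) under 0.05. Single genes and ratios also had exact permutation tests over libraries. Pathway genes were named by the smallest p in each role for genotype, and as the 2 most abundant of each role in WT microglia for cell type. Pik3ap1 was named from the authors' table after its values were seen. Of the identifiers, 96.2% were in the GENCODE annotation on GRCm38. The members, gene lists and tests were chosen with earlier results of these data known. The script was tested on simulated data. Absolute depth is unknown, so no counting interval is given.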

Additional observations from a re-analysis of the deposited data

Results flagged for a closer look

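In KO astrocytes, Fcgr1, Inpp5d and Fcgr2b, of 9 members, had a library far from the other 3 by Dixon's test. Chance gives such a gap in about 1 in 20 groups of normally distributed values. Low FPKM bounded at 0 need not follow that rate, so 3 of 9 is not read as an excess. The gap of the highest library to its neighbour, as a share of the range, was 0.9745 for Fcgr1 in library 3, 0.8294 for Inpp5d in library 3 and 1 for Fcgr2b in library 2, each above the 95% critical value. The values were 0.725 FPKM of Fcgr1, 4.90 FPKM of Inpp5d and 0.165 FPKM of Fcgr2b in those libraries, against 0.0301, 0.0119 and 0.0171 FPKM of Fcgr1, 0.0832, 0.879 and 0.0520 FPKM of Inpp5d and 0 in all 3 others for Fcgr2b. With 3 libraries at 0, the share for Fcgr2b is 1 whatever the other value, so it says nothing about that library. The others are low levels, and Inpp5d is only just past the critical value.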

How the results depend on the processing

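None of the 10 genes was called by genotype or interaction in limma under any alternative run, and all 10 were called by cell type under every one. For the members near 0 in astrocytes the cell type call was largely built in, so its return adds no support. Where the FPKM were quantile normalised, the median of all genes between cell types moved to −0.08 in KO and −0.06 in WT, against 0.24 and 0.21.

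Counts of called genes moved more. Between KO and WT microglia, 13 became 25 with a pseudocount of 0.1, 7 without a filter, 37 in the fit of all 13 libraries, 258 with Xist as covariate (a fit that in effect sets the KO libraries against WT library 3 alone, since Xist takes up WT 1 and WT 2) and 18 to 48 on leaving out a library in turn (48 without KO library 1, 33 without KO 3, 27 without WT 3 and 23 without KO 2). Between KO and WT astrocytes, 3 became 5 with the smaller pseudocount, 0 without a filter, 7 in the fit of all 13 libraries, 0 at day 12 alone and 0 to 8 on leaving out a library (8 without WT 2, 6 without KO 1 or KO 4, 1 without WT 1, and 0 without KO 2 or WT 3). For the interaction, 23 became 37 without a filter and 15 to 75 on leaving out a library (35 to 75 without any 1 microglia library, and 15 without WT astrocytes 2). With the replicate number as a block, 3 genes were called in microglia and 0 in astrocytes. Same-numbered libraries did not deviate together (correlations of 0.028, 0.0099 and 0.023 in microglia and 0.021, −0.078 and −0.017 in astrocytes), so the numbers do not pair the libraries.

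Differences near 0 changed sign, and the cause was not tested. Fcgr2b gave −0.033 with Xist as covariate, Tyrobp −0.011 with median ratio scaling (but 0.37 after quantile normalisation) and Fcer1g 0.051 after quantile normalisation. Adam17 gave 0.18 with Xist as covariate, which like that of Fcgr2b rests on 1 WT library. In astrocytes Trem2 gave 0.20 at day 12 alone. On leaving out each microglia library in turn, Fcgr3 ran from −0.083 (without WT 3) to 0.16, Fcgr2b from −0.012 (without WT 2) to 0.17 and Tyrobp from −0.11 (without WT 3; also below 0 without KO 2) to 0.14, and the log2 ratio difference of Fcgr2b to activating receptors from −0.19 to 0.17 (above 0 without KO 3 or WT 3) and of Plcg2 to Syk from −0.29 to 0.14 (above 0 without KO 2, WT 2 or WT 3). In astrocytes Trem2 ran from −1.80 to 0.20, the last without either day 9 library, since the age term then takes up the other. Trem2 in microglia ran from 0.09 to 0.39 and Syk from 0.02 to 0.43, and in astrocytes Tyrobp from 0.92 to 2.38 and Fcer1g from 0.52 to 2.58. The adjusted p of Inpp5d stayed between 0.383 and 0.955 on leaving out each library.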
